A study of Mus musculus with 56 samples.

Results

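The transcripts of 7 GABA-A receptor subunit genes (Gabra2, Gabra3, Gabra4, Gabra5, Gabrb1, Gabrb2 and Gabrd) were followed through RNA sequencing of the prefrontal cortex of 56 mice. They were chosen by name, as 7 of the 18088 genes in the deposited table, and all 7 passed the filter on low values that left 17778 genes to be tested. The mice were C57BL/6J, either heterozygous for Scn2a (HT, 29 libraries) or wild type (WT, 27 libraries). The protein made from Scn2a is the neuronal sodium channel NaV1.2. The pups had received fluoxetine, a serotonin reuptake inhibitor, lithium, a mood stabiliser, or vehicle through the mother's milk from postnatal day 3 to day 24, and tissue was taken at day 25. HT mice gave 9 fluoxetine, 10 lithium and 10 vehicle libraries, and WT mice gave 9 of each, with females and males in every group (4 or 5 libraries each). The allele's construction and the doses are not given in the sources used here. The labels name no dam or litter, so some pups may be siblings, and the p-values measure only the spread between these libraries.

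GABA-A receptors are pentameric chloride channels opened by GABA, the main inhibitory transmitter of the adult brain. GABA binds between a beta and an alpha subunit, and classical benzodiazepines bind between an alpha and a gamma subunit. Which alpha subunit is present sets drug sensitivity and, in part, the place of the receptor: receptors with the alpha2 or alpha3 subunit are mostly synaptic, while those with the alpha5 or delta subunit lie largely outside synapses and carry tonic inhibition. The alpha4 subunit often assembles with delta in forebrain neurons. The mix of subunits shifts over the first postnatal weeks, when alpha2, alpha3 and alpha5 are prominent in rodent cortex.

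Gabra2, Gabra4 and Gabrb1 lie in 1 cluster on chromosome 5 (GRCm38, GENCODE vM21): Gabra2 at chr5:70957597-71095849 and Gabra4 at chr5:71569749-71658308, both on the minus strand, and Gabrb1 at chr5:71658113-72149037 on the plus strand. Gabra3 lies on the X chromosome (chrX:72432681-72656848, minus strand), Gabra5 at chr7:57407672-57510059 (minus strand), Gabrb2 at chr11:42419757-42629028 (plus strand) and Gabrd at chr4:155384980-155398112 (minus strand). Gabra4 and Gabrb1 are arranged head to head, and their annotated spans overlap by 196 bases. Gabra5 overlaps a subunit gene of the opposite strand over 90368 bases. These overlaps are of whole gene spans, introns included, and the union of the Gabra5 exons is 2974 bases. The overlap of exons was not measured. Libraries were made with a stranded mRNA kit, but whether reads were assigned by strand is not given in the sources used here. How far the overlaps affect the values of these genes is therefore not known.

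The promoter windows of Gabra3, Gabra4 and Gabrb1 are shown, Gabra3 because it is the single member called in any comparison, and Gabra4 and Gabrb1 because they face each other and varied together over the libraries. Each window is RefSeq sequence on GRCm38.p6, from 250 bases before to 50 bases after a start site, written 5′ to 3′ on the gene's strand. The Gabra3 window is chrX:72656870-72657169 (minus strand), the Gabra4 window chr5:71658259-71658558 (minus strand) and the Gabrb1 window chr5:71657671-71657970 (plus strand). Capitals mark matches, on either strand, to the 3 motifs searched. These were the GC box, spelled GGGCGG, the CCAAT box, spelled as its name, and the TATA box, spelled TATAAA. No matches overlapped in these windows.
Gabra3: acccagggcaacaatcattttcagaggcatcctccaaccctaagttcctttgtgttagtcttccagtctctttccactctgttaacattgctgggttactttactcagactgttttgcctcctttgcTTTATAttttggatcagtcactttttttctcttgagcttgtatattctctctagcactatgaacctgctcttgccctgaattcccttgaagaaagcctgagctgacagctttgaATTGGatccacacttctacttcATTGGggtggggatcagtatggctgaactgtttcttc
Gabra4: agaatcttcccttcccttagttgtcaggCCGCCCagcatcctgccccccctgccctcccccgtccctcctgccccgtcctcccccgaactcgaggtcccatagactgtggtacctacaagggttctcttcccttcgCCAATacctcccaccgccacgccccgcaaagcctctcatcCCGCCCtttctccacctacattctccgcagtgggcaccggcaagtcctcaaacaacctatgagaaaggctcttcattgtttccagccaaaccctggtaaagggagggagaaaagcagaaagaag
Gabrb1: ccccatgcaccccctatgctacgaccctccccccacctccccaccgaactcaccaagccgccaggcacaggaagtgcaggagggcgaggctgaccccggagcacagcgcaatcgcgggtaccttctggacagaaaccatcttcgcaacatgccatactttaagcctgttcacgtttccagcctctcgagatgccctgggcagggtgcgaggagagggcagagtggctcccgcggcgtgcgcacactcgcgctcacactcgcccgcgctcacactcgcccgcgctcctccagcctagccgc

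The Gabra3 window shown held no CpG and 43.0% G or C. It had 2 matches to the CCAAT box, the last of them after the start site, and 1 to the TATA box. All of these matches were on the strand opposite to the gene. Of 32851 windows of the same length, 5.43% held no CpG, 37.4% held a CCAAT box and 13.6% held TATAAA. The Gabra4 window held 12 CpG, 2 GC boxes (in 35.7% of windows) and 1 CCAAT box, and the Gabrb1 window shown 25 CpG and none of the 3 motifs. The start sites of Gabra4 and Gabrb1 in these windows are 387 bases apart. Windows of 6 of the 7 genes were matched by symbol, all but Gabrd, and there were 10 in all, since some genes have several start sites. Gabra3 and Gabrb1 have 2 windows each, of which 1 is shown. The second Gabra3 window, which overlaps the one shown, held 39.3% G or C and 0 CpG, and the second Gabrb1 window, chr5:71699682-71699981, held 9 CpG. The letters are a description and say nothing of which factors bind.

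Depth was 24.3 to 36.4 M reads per library. Scn2a, the targeted gene, averaged 8554 ± 423 in HT and 12311 ± 780 in WT libraries (value, SD), and the 2 ranges did not overlap. Every value here is a read count divided by a size factor of its library, and each member had at least 1257 reads in every library. Markers of cortical excitatory neurons were high throughout, with Slc17a7, the vesicular glutamate transporter, at 45151 to 59615. Markers of olfactory bulb and of striatum, regions next to the prefrontal cortex, varied widely, with Cdhr1 from 101 to 4411 and Adora2a from 68.6 to 1409.6. A marker score, the mean log2 difference of a list's genes from their medians over all libraries, was above 1 for the olfactory or the striatal list in 19 libraries: 3 of 9 HT fluoxetine, 4 of 10 HT lithium, 4 of 10 HT vehicle, 3 of 9 WT fluoxetine, 2 of 9 WT lithium and 3 of 9 WT vehicle libraries.

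Per kilobase of the longest annotated transcript, Gabra3 was the most abundant of the 7 transcripts, at 1281 ± 103 (value per kilobase, mean ± SD, n = 56), ahead of Gabrb2 at 901 ± 103 in 56 of 56 libraries. Gabrb2 stood above Gabra4 (797 ± 69.8) in 52 libraries, and Gabra4 above Gabrd (666 ± 52.6) in 55. Gabrd and Gabra5 (655 ± 43.6) could not be ordered, since Gabrd was the higher in 31 of 56 libraries. Both exceeded Gabra2 (321 ± 35.5) and Gabrb1 (314 ± 25.4), which in turn did not separate, Gabra2 being higher in 29 libraries. The place of Gabra3 at the top held with the union of exons as the length, at 1195 ± 96.1 per kilobase. Much of the order below it did not. On that length Gabrd came next, at 627 ± 49.5, then Gabra5 at 588 ± 39.2, Gabrb2 at 565 ± 64.4 and Gabra4 at 538 ± 47.1. Neighbours among these 4 kept their order in only 36 to 40 of 56 libraries. Below them Gabrb1 (311 ± 25.2) stood above Gabra2 (246 ± 27.2) in 54 libraries.

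**Figure D1:**
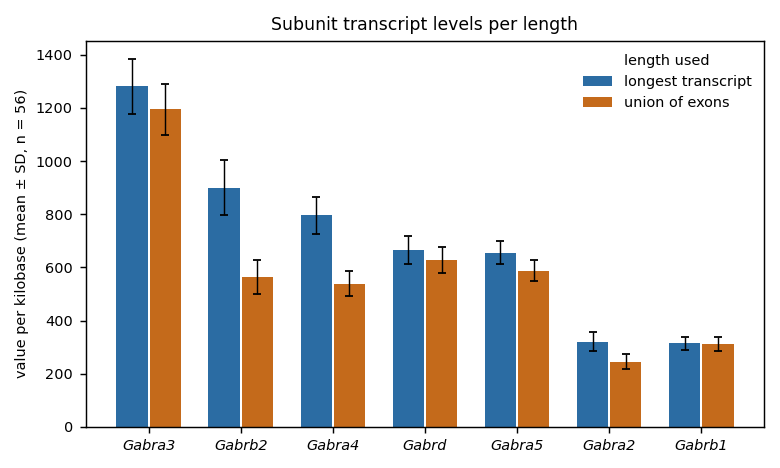
Values per kilobase (y axis, mean ± SD over 56 libraries) of the 7 subunit transcripts, with the longest annotated transcript (blue) or the union of exons (orange) as the length. Gabra3 is highest on both lengths (1281 and 1195), while Gabrb2 and Gabra4 move to 565 and 538 on the union of exons.

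The 12 group means of each transcript lay close together, but most genes with a mean value of at least 1000 spread less within groups. Between the lowest and the highest of the 12 genotype, treatment and sex groups the mean differed 1.09-fold for Gabra5 and up to 1.23-fold for Gabrb2, whose means ran between 3190.2 in HT vehicle females and 3937 in WT vehicle males. The within-group SD between libraries was 6.99% for Gabra5, 7.35% for Gabrd, 7.92% for Gabra3 and 8.14% for Gabrb1. It was 8.80% for Gabra4, 11.3% for Gabra2 and 11.9% for Gabrb2. Among 5860 genes with a mean value of at least 1000, between 69.3% (Gabra5) and 94.2% (Gabrb2) had a smaller within-group SD.

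Of the synaptic alpha subunits, Gabra2 averaged 1803 ± 167 under fluoxetine, 1877 ± 196 under lithium and 1801 ± 118 under vehicle in HT mice, and 1939 ± 311 under fluoxetine, 1937 ± 223 under lithium and 1908 ± 203 under vehicle in WT mice (value, SD, n = 9 or 10). Gabra3 averaged 4798 ± 423 under fluoxetine, 4788 ± 227 under lithium and 4566 ± 417 under vehicle in HT mice, and 4613 ± 389.8 under fluoxetine, 4984 ± 218 under lithium and 4401 ± 323 under vehicle in WT mice. For both genes the libraries of every group overlapped those of the others.

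Of the subunits tied to tonic inhibition, Gabra4 averaged 3397 ± 335 under fluoxetine, 3082 ± 207 under lithium and 3259 ± 266 under vehicle in HT mice, and 3269 ± 327 under fluoxetine, 3359 ± 162 under lithium and 3299 ± 345 under vehicle in WT mice. Gabra5 had the least movement, with group means between 1753 and 1773 in HT mice and between 1707 and 1769 in WT mice. Gabrd averaged 1782 ± 125 under fluoxetine, 1777 ± 121 under lithium and 1753 ± 131 under vehicle in HT mice, and 1743 ± 149 under fluoxetine, 1934 ± 160.0 under lithium and 1832 ± 106 under vehicle in WT mice. The highest mean of Gabrd was thus in WT mice given lithium.

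Of the beta subunits, which form the GABA site together with alpha subunits, Gabrb1 averaged 4228 ± 238 under fluoxetine, 4259 ± 321 under lithium and 4149 ± 278 under vehicle in HT mice, and 4293 ± 473.5 under fluoxetine, 4534 ± 257 under lithium and 4411 ± 422 under vehicle in WT mice. Gabrb2 averaged 3565 ± 412 under fluoxetine, 3539 ± 483 under lithium and 3398 ± 375 under vehicle in HT mice, and 3625 ± 411 under fluoxetine, 3783 ± 146 under lithium and 3673 ± 522 under vehicle in WT mice. Both had lower means in HT than in WT mice under each of the 3 treatments, as did Gabra2, with overlapping libraries.

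**Figure D2:**
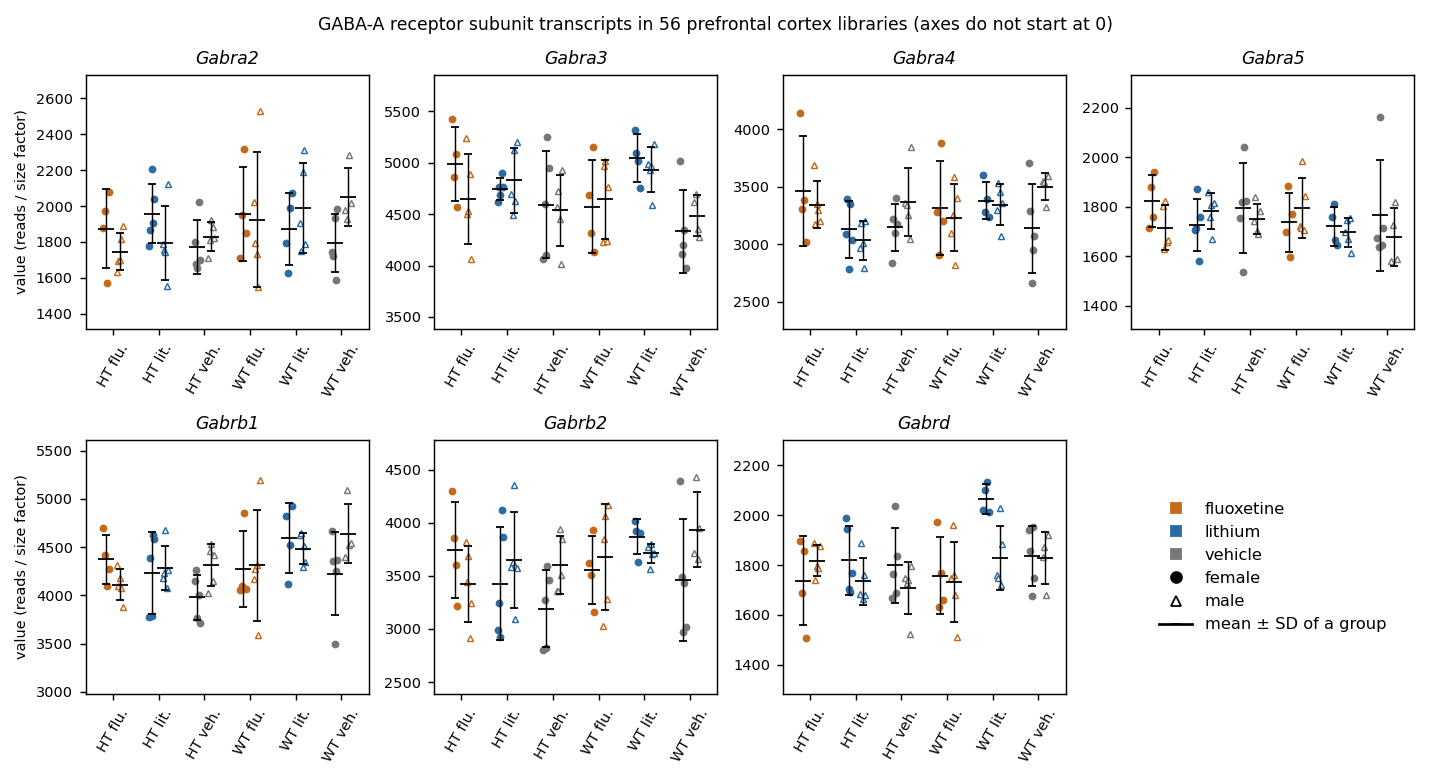
Values (y axis, reads divided by the size factor, not starting at 0) of each subunit in every library, by genotype and treatment (x axis), with females as filled circles, males as open triangles and bars for the mean ± SD of each group. Groups of genotype and treatment overlap for every subunit. Some groups of a single sex do not, such as Gabrd in WT females (2012 to 2132 under lithium, 1676 to 1953 under vehicle). The most visible step with the sexes together is Gabra3 in WT mice, 4984 ± 218 under lithium and 4401 ± 323 under vehicle.

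The first question was whether loss of 1 Scn2a copy altered these subunits. Changes below are log2 differences of log2(value + 1), HT minus WT or drug minus vehicle, from limma over all genes, averaged over the sexes, and a gene was called at an adjusted p (Benjamini-Hochberg over the 17778 genes) below 0.05. Under vehicle, 0 of 7 members were called, where 0.00562% of all genes were. The changes ran from -0.12 (Gabrb2) to 0.05 (Gabra3), with a lowest adjusted p of 0.55 by limma, and 5 of 7 were below 0. Among the 7, 0 had an unadjusted p below 0.05. Under fluoxetine 0 of 7 were called (0.0112% of all genes) and 0 had an unadjusted p below 0.05, with changes from -0.09 to 0.06. Here and in each comparison with 0 members called, edgeR and DESeq2 on the recovered reads called 0 as well.

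Under lithium 0 of 7 members were called between genotypes as well (0.0337% of all genes), and 2 had an unadjusted p below 0.05. Gabrd was at 1663, 1731 and 1990.2 (lowest, median and highest) in HT lithium libraries and at 1722, 2012 and 2132 in WT lithium libraries. Its change was -0.13 ± 0.046 (SE, 95% interval -0.22 to -0.04, adjusted p = 0.34 by limma), and 9 of 10 HT libraries lay below the WT mean of their sex. Gabra4, with which delta often assembles, was at 2787, 3061 and 3390.4 in HT lithium libraries and at 3068, 3356 and 3601 in WT lithium libraries. It changed by -0.13 ± 0.054 (95% interval -0.24 to -0.02, adjusted p = 0.43 by limma), again with 9 of 10 HT libraries below. The 2 groups overlapped for both genes, and neither difference passed the correction. The mean olfactory score was 0.32 in HT lithium and -0.62 in WT lithium libraries, and over the 56 libraries it had r of -0.64 with Gabrd and -0.52 with Gabra4. With the olfactory and striatal scores as covariates the change of Gabrd was -0.06 (adjusted p = 0.73) and that of Gabra4 -0.08 (adjusted p = 0.77, both by limma).

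Averaged over the 3 treatments, 0 of 7 members were called by genotype, against 0.152% of all genes, and 2 had an unadjusted p below 0.05. The median change was -0.06 over the members and 0.00 over all genes, and 5 of the 7 members were lower in HT. Gabrb1 changed by -0.07 ± 0.029 (adjusted p = 0.53 by limma), with 22 of 29 HT libraries below the WT mean of their sex and treatment. Gabrd changed by -0.06 ± 0.027 (adjusted p = 0.60 by limma), with 19 of 29 HT libraries below. Gabrb2 changed by -0.08 ± 0.042 (19 of 29 below) and Gabra2 by -0.07 ± 0.040 (20 of 29 below). Gabra3 had a change of 0.02 and Gabra5 of 0.03. The 95% intervals of the 7 reached no lower than -0.17, against a change of -0.53 in Scn2a itself.

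The second question was whether fluoxetine altered them. In HT mice 0 of 7 members were called (0.045% of all genes), with changes from -0.00 (Gabra5) to 0.08 (Gabra3). In WT mice 0 of 7 were called as well (0.146% of all genes), with changes from -0.07 (Gabrd) to 0.06 (Gabra3), and in neither genotype did a member have an unadjusted p below 0.05. With the genotypes averaged, 0 of 7 were called (0.928% of all genes) and 0 had an unadjusted p below 0.05; Gabra3 had the largest change of the 7, 0.07 ± 0.035 (adjusted p = 0.36 by limma). The difference between the drug's effects in HT and WT was tested directly, and 0 of the 17778 genes were called, while 0 of the 7 members had an unadjusted p below 0.05. Between the sexes, the fluoxetine change in HT mice was higher in females than in males by 0.31 ± 0.144 for Gabrb2 (adjusted p = 0.82) and by 0.21 ± 0.101 for Gabrb1 (adjusted p = 0.82, both by limma). Neither passed the correction.

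The third question was whether lithium altered them. Gabra3 rose under lithium in WT mice and was the only one of the 7 called, by any genotype, drug, interaction or sex comparison made. In WT females it was at 5319, 5099.6, 5018 and 4750.2 in the 4 lithium libraries and at 5019, 4117, 4195, 4350.3 and 3981 in the 5 vehicle libraries. All 4 lithium females lay above 4 of the vehicle females, while vehicle female 1 lay among them. In WT males it was at 4988, 4934, 4973, 4588 and 5185 in the 5 lithium libraries and at 4622, 4694, 4352 and 4279 in the 4 vehicle libraries. The male groups overlapped through lithium male 4.

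Gabra3 rose by 0.18 ± 0.051 in WT mice (95% interval 0.08 to 0.28, or 13.3%, adjusted p = 0.026 by limma), with 9 of 9 lithium libraries above the vehicle mean of their sex. In that comparison 1 of 7 members was called, against 5.71% of all genes (1016 genes), 3.84% higher and 1.88% lower, and its p ranked 548th. Of those genes 67.1% were higher, a share that was 55.9% of 884 genes after TMM rescaling. By sex the change of Gabra3 was 0.22 (adjusted p = 0.089, females, where 0.799% of all genes were called) and 0.14 (adjusted p = 0.44, males, with 0.208% called), and the difference between the sexes, 0.09, was not called (adjusted p = 0.88, all by limma). Since whole tissue was sequenced, more cells of a type that carries the transcript and more transcript per cell cannot be told apart.

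In HT mice Gabra3 was at 4494, 4726 and 5206 (lowest, median and highest) in lithium libraries and at 4011, 4588 and 5247 in vehicle libraries. Its change of 0.07 ± 0.048 was not called (adjusted p = 0.37 by limma), although 9 of 10 lithium libraries lay above the vehicle mean of their sex, and 0 of 7 members were called where 8.77% of all genes were (4.64% higher, 4.13% lower). The difference between the lithium effects in HT and WT mice was -0.11 ± 0.069 (95% interval -0.25 to 0.03, adjusted p = 0.56 by limma). A difference between the genotypes in the lithium response of Gabra3 was therefore not shown. With the genotypes averaged, Gabra3 rose by 0.13 ± 0.035 (9.16%, adjusted p = 0.0087 by limma), with 18 of 19 lithium libraries above, and 1 of 7 members was called against 16.2% of all genes (9.31% higher, 6.85% lower).

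The rise of Gabra3 in WT mice stood close to the threshold. Without WT lithium female 1 the change in WT mice was 0.17 with an adjusted p of 0.052, and without WT vehicle male 4 it was 0.17 with an adjusted p of 0.060 (limma). Without the 19 libraries with an olfactory or striatal score above 1 it was 0.16 with an adjusted p of 0.15, and 0.11 with an adjusted p of 0.10 over both genotypes (limma). With those scores as covariates in all 56 libraries the change in WT mice was 0.18 (adjusted p = 0.012 by limma). Over both genotypes it was 0.12 in that fit (adjusted p = 0.0018 by limma). The adjusted p of the rise in WT mice thus ran from 0.012 to 0.15 over the settings tried. Over both genotypes it ran from 0.0018 to 0.10, and was at most 0.017 by limma with any 1 library left out.

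Marker lists are given beside the rise of Gabra3 in WT mice, in a comparison where 5.71% of all genes were called. In WT mice under lithium 7 of 9 excitatory neuron markers were higher (median 0.07) and 1 was called, Tbr1, a transcription factor of deep-layer cortical neurons, at 0.18. The summed value of that list was 156378 to 183775 in WT lithium and 144993 to 179474 in WT vehicle libraries. All 11 olfactory markers were lower (median -0.63) and all 11 striatal markers higher (median 0.28), with 0 called in either list, and the mean olfactory score was -0.62 in WT lithium and 0.07 in WT vehicle libraries. Astrocyte markers were lower in 5 of 6 genes (median -0.06, 0 called), with a summed value of 125086 to 146985 in WT lithium and 127525 to 153946 in WT vehicle libraries. Oligodendrocyte markers were higher in 4 of 6 (median 0.04, 0 called), interneuron markers in 5 of 11 (median -0.01, 0 called), thalamic markers in 1 of 4 (median -0.08, 0 called) and microglial markers in 0 of 5 (median -0.11, 0 called). Beyond the covariate fit for the olfactory and striatal scores and the fit without the libraries of high score, the part of these lists in the Gabra3 result was not tested.

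**Figure D3:**
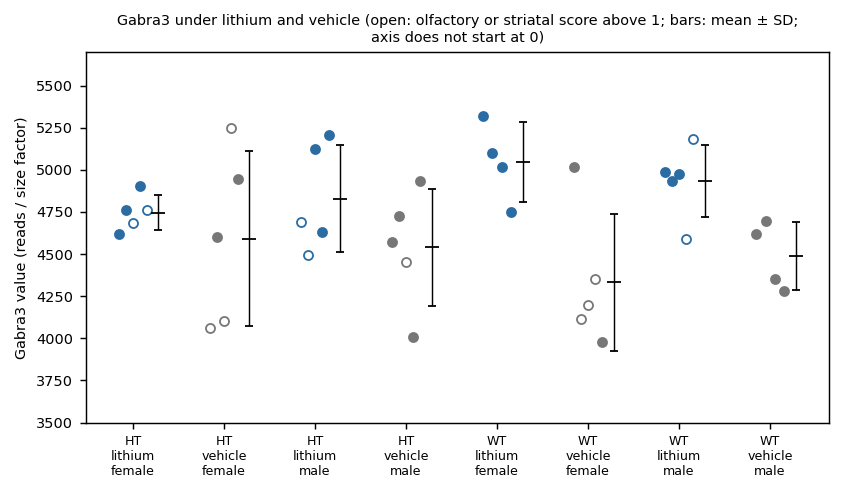
Gabra3 values (y axis, reads divided by the size factor, not starting at 0) in each lithium (blue) and vehicle (grey) library by genotype and sex (x axis), with bars for the mean ± SD; open circles mark libraries with an olfactory or striatal score above 1. In WT females the lithium libraries lie between 4750.2 and 5319, and the vehicle libraries between 3981 and 4350.3 apart from the library at 5019.

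The other 6 members were not called under lithium in either genotype, and 0 of them had an unadjusted p below 0.05. Gabrd had the next largest change in WT mice, 0.09 ± 0.047 (adjusted p = 0.28 by limma). In WT females it was at 2012, 2061 and 2132 (lowest, median and highest) in lithium libraries and at 1676, 1858 and 1953 in vehicle libraries, and these groups did not overlap, with a change of 0.17 ± 0.067 (adjusted p = 0.15 by limma). The olfactory scores of these females were -1.22 to -0.75 under lithium and -1.45 to 2.45 under vehicle. With the olfactory and striatal scores as covariates the change of Gabrd in WT mice of both sexes was 0.03 (adjusted p = 0.67 by limma), and the part of the scores in the female values was not tested separately. WT males averaged 1829 ± 129.7 under lithium and 1827 ± 104 under vehicle. Gabra4 changed by -0.08 ± 0.053 in HT mice and by 0.02 ± 0.056 in WT mice. Gabra2, Gabra5, Gabrb1 and Gabrb2 had changes between -0.01 and 0.06 in both genotypes, and their 95% intervals together spanned -0.14 to 0.20.

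**Figure D4:**
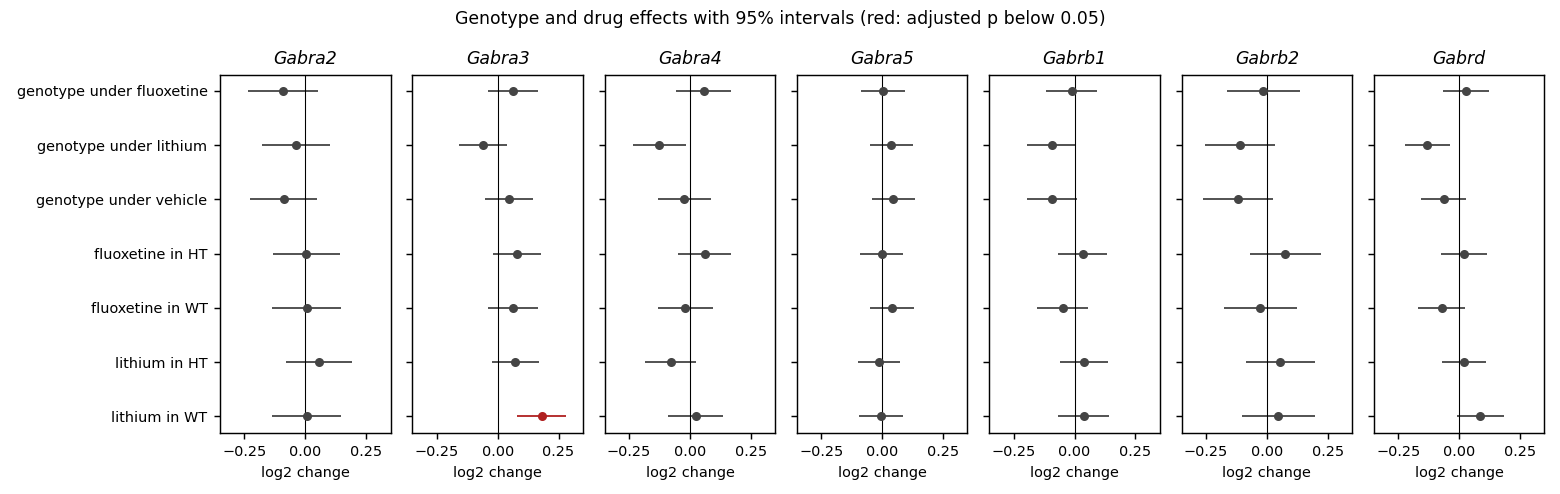
Log2 changes (x axis, points, with 95% intervals) of each subunit in 7 comparisons (rows: HT minus WT under each treatment, then drug minus vehicle in each genotype). The sole interval in red, for an adjusted p below 0.05, is lithium in WT mice for Gabra3 (0.18, 0.08 to 0.28).

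By sex, 0 of 7 members were called (0.197% of all genes) and 0 had an unadjusted p below 0.05, with differences, female minus male, from -0.05 (Gabrb2) to 0.05 (Gabrd). Gabra3, although on the X chromosome, differed by 0.01.

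Some members varied together over the 56 libraries, described by Pearson's r of log2(value + 1), and no grouping of them was tested. Gabrb1 and Gabrb2, on different chromosomes, had the highest r, 0.72. Gabra3, Gabra4 and Gabrb2 had r of 0.57 to 0.63 with each other, and the head-to-head neighbours Gabra4 and Gabrb1 had 0.58. Gabra2, in the same cluster, had r of 0.41 with Gabrb1 and 0.10 with Gabra4. Gabra5 had r of -0.46 with Gabrd, -0.24 with Gabra4 and -0.23 with Gabrb1. With the other members its r was -0.055 to 0.12. Without the 19 libraries of high score the r of Gabrb1 with Gabrb2 was 0.67 and that of Gabra5 with Gabrd was -0.16 (37 libraries). In those 37 libraries Gabra2 had r of 0.32 with Gabra4 and -0.32 with Gabra5, and the r among Gabra3, Gabra4 and Gabrb2 was 0.52 to 0.58. On residuals from the 12 group means, over all 56 libraries, Gabra3 and Gabra4 had the highest r, 0.715. Gabrb1 and Gabrb2 had 0.64 on those residuals. All points share the library's depth, scaling and dissection.

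The members followed the marker scores in different directions. Over the 56 libraries the olfactory score had r of 0.60 with Gabra5 and 0.40 with Gabra2, and of -0.64 with Gabrd, -0.52 with Gabra4 and -0.40 with Gabra3. Gabra5 averaged 1872 ± 129 in the 12 libraries with an olfactory score above 1 and 1728 ± 86.2 in the 37 libraries with neither score above 1. Gabrd averaged 1666 ± 81.8 in those 12 libraries and 1829 ± 138 in the 37, and Gabra4 averaged 3042 ± 236 in the 12 and 3364 ± 279 in the 37. Gabra5 and Gabra2 were thus higher, and Gabrd and Gabra4 lower, where olfactory markers were high. The excitatory neuron score had r of 0.56 with Gabra3, 0.57 with Gabra4, 0.54 with Gabrb2 and 0.42 with Gabrd, and of -0.37 with Gabra2. Gabra3 also had r of -0.56 with the thalamic score and -0.46 with the astrocyte and the oligodendrocyte score. Several of these values were smaller in the 37 libraries without a high score. There the olfactory score had r of 0.39 with Gabra5, 0.14 with Gabra2, -0.55 with Gabrd, -0.31 with Gabra4 and -0.53 with Gabra3. The excitatory neuron score had r of 0.58 with Gabra3, 0.27 with Gabra4, 0.41 with Gabrb2, 0.39 with Gabrd and -0.21 with Gabra2 in the 37 libraries. For Gabra3 the r was -0.28 with the thalamic score, -0.30 with the astrocyte score and -0.23 with the oligodendrocyte score.

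**Figure D5:**
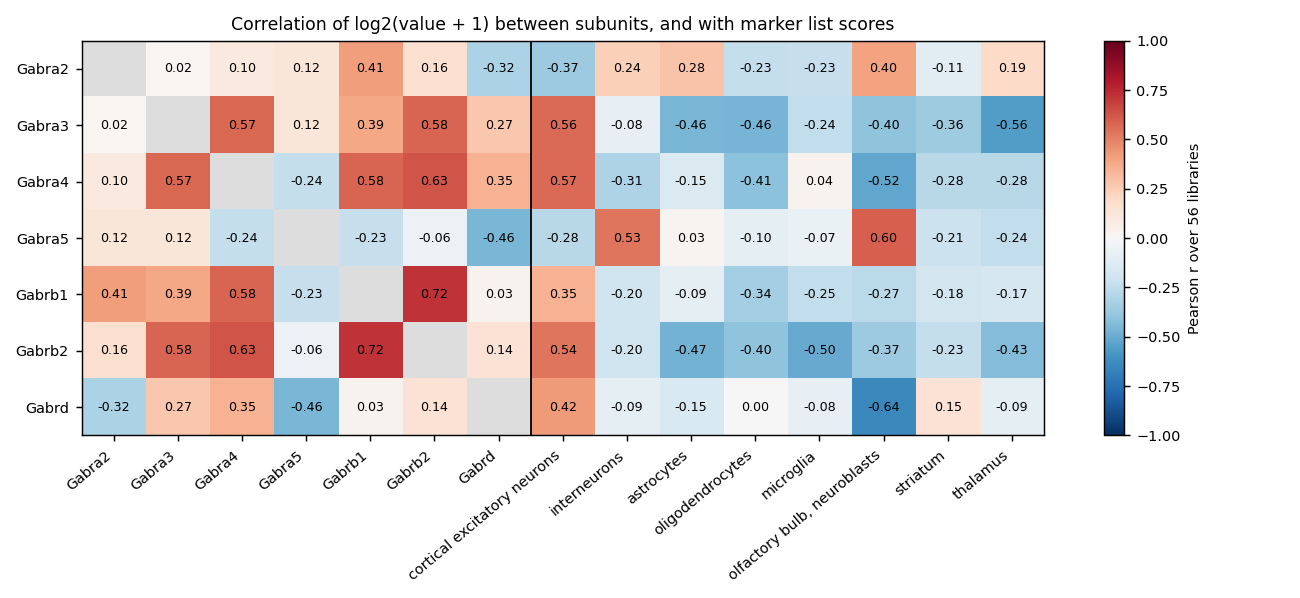
Pearson's r (colour and number, blue negative and red positive) of log2(value + 1) over 56 libraries between the 7 subunits (left of the line) and between each subunit and the marker list scores (right of the line). Gabrb1 and Gabrb2 reach 0.72, and the olfactory column runs from 0.60 for Gabra5 to -0.64 for Gabrd.

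Among 12821 genes with a mean value of at least 50, those most like each member over the 56 libraries were named by r. For Gabra3 these were Sh3gl2 (0.79), which encodes endophilin A1 of synaptic vesicle endocytosis, Nars (0.79), a tRNA synthetase, and Pja2 (0.78), a ubiquitin ligase. For Gabrb1 they included Tmod2 (0.87) and Cacna2d1 (0.86), a calcium channel subunit. For Gabrb2 they were Prepl (0.89), Atp2b1 (0.86), a calcium pump, and Plcb1 (0.85), a phospholipase. Gabrb2 ranked 87th for Gabrb1 and 354th for Gabra3, Gabra4 ranked 412th for Gabra3, and Gabrb1 ranked 515th for Gabra4. On residuals from the 12 group means these ranks were, in the same order, 266, 213, 65 and 635. No member was among the top 3 of another. For Gabra4 they included Mtpn and Man1a2 (0.89 each), for Gabra5 Sybu (0.82), Nrip3 (0.79) and Ablim3 (0.74), for Gabra2 Zfp397 (0.76), Lats1 (0.75) and Dmxl1 (0.73), and for Gabrd Robo3 (0.80), Map6d1 (0.79) and Abcb9 (0.79).

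Other genes of the GABA-A system were counted from fixed lists, and in the 10 genotype, fluoxetine, interaction and sex comparisons 0 of the 42 tested were called, with 1 to 8 at an unadjusted p below 0.05. Under lithium, 8.77% of all genes tested were called in HT mice, 5.71% in WT mice and 16.2% with the genotypes averaged, and the counts of each list stand against these shares. The lithium effects in HT and WT mice were also compared directly, and 0 of the 17778 genes were called by limma. A call in 1 genotype alone is therefore no evidence that the genotypes differ. Of 7 other receptor subunits that could be tested, 1 was called in HT mice, 2 in WT mice and 2 with the genotypes averaged, all higher. Gabrq, the theta subunit, averaged 57.3 ± 9.10 in HT lithium and 42.0 ± 6.96 in HT vehicle libraries. It rose by 0.44 ± 0.125 (adjusted p = 0.019 by limma), with 10 of 10 lithium libraries above the vehicle mean of their sex. Its change in WT mice was 0.36 ± 0.132 (adjusted p = 0.090 by limma), and with the genotypes averaged it rose by 0.40 ± 0.091 (adjusted p = 0.0015 by limma). Gabre, the epsilon subunit, rose by 0.91 ± 0.258 in WT mice (adjusted p = 0.027 by limma) and had a change of -0.12 in HT mice, at a mean value of 9.25 over all libraries, where few reads lie behind each value. The gamma1 subunit gene Gabrg1 (-0.11 over both genotypes) and the gamma3 subunit gene Gabrg3 (0.02) were not called.

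Of 10 genes for clustering and anchoring of the receptor, 1 was called in HT mice, 0 in WT mice and 1 over both, near the shares of all genes. The gene was Shisa7, which encodes an auxiliary subunit of GABA-A receptors and rose by 0.15 ± 0.039 in HT mice (adjusted p = 0.0094 by limma). It lay above the vehicle mean of its sex in 10 of 10 HT and 7 of 9 WT lithium libraries. Of 13 genes for receptor trafficking and turnover, 1 was called higher and 2 lower in HT mice, 4 higher and 0 lower in WT mice, and 3 higher and 2 lower over both genotypes. Of all genes, 4.64% were called higher and 4.13% lower in HT mice, 3.84% and 1.88% in WT mice, and 9.31% and 6.85% over both. With 13 genes, these counts are a description of the list. Arfgef2, which encodes BIG2, a vesicle trafficking factor that binds beta subunits, rose by 0.14 ± 0.031 in HT mice and by 0.13 ± 0.032 in WT mice, and lay above the vehicle mean of its sex and genotype in 19 of 19 lithium libraries. Ubqln1, whose product PLIC-1 slows receptor degradation, rose by 0.10 ± 0.023 in WT mice (adjusted p = 0.0067 by limma), where it was at 4591 to 4827 in lithium and 4084 to 4572 in vehicle libraries. In HT mice it lay above the vehicle mean of its sex in 10 of 10 lithium libraries. Nsf, a membrane fusion factor, rose by 0.13 ± 0.038 in WT mice (adjusted p = 0.029) and Clptm1, which holds subunits back from the cell surface, by 0.07 ± 0.021 (adjusted p = 0.044, both by limma). Of the relatives of the GABA-A receptor-associated protein, Gabarapl1 fell by 0.12 on the log2 scale in HT mice (adjusted p = 0.013) and Gabarapl2 fell by 0.07 (adjusted p = 0.028, both by limma).

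Of 8 genes for the synthesis, release, uptake and breakdown of GABA, 0 were called in HT mice, 1 lower in WT mice, and 1 higher and 1 lower over both genotypes, which is near the 8.77%, 5.71% and 16.2% of all genes. Slc6a13, a GABA transporter found mostly in the meninges, fell by 0.38 ± 0.119 on the log2 scale in WT mice (adjusted p = 0.047 by limma), and Abat, the GABA transaminase, rose by 0.08 ± 0.028 over both genotypes (adjusted p = 0.043 by limma). Of 4 genes for chloride transport and GABA-B receptors, 0 were called in either genotype and 1 over both (against 16.2% of all genes), Slc12a5, which encodes the chloride exporter KCC2 and rose by 0.07 ± 0.024 (adjusted p = 0.048 by limma).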

How the data were processed

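RNA of the prefrontal cortex was sequenced from 56 libraries in 12 groups of genotype, treatment and sex, taken from the titles. Per the submitters' processing notes, the build was GRCm38, and DESeq2 1.19.11, R 3.6.0 and Salmon 0.11.2 are listed without their roles, and libraries were made with a stranded mRNA kit per the labels' protocols. The deposited values are a signal, the authors' read counts divided by 1 size factor per library (0.818 to 1.23). The reads were recovered from the steps between values (100% whole within 0.01 reads). In the 3 libraries whose step lay next to 1 the test of whole reads says little for genes of few reads. Their values there lie near whole numbers before any division. Symbols were paired with 18077 of 18088 gene IDs.

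Genes with a value of at least 10 in at least 4 libraries were kept (310 left out). limma 3.58.1 in R 4.3.3, with trend and robust settings, was fitted to log2(value + 1) with 12 group means over all 56 libraries. A fold change on this scale understates the change of low genes. The test planned for values already divided by size factors was used. The fit was tested on simulated data. Alternatives were TMM rescaling, voom, no filter, pseudocounts of 0.5 and 5, a replicate block, a fit on only the groups compared, omission of each library in turn, edgeR 4.0.16 (quasi-likelihood) and DESeq2 1.42.0 on the recovered reads, olfactory and striatal scores as covariates, and leaving out 19 libraries with such a score above 1.

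The members and gene lists were chosen with earlier results of these data known. Named were the 7 members in every comparison, other subunits and partner genes where called (at most 4 per list and comparison), and the 3 genes most like each member. Some genes that this rule names are not reported here, while counts include them.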

Additional observations from a re-analysis of the deposited data

Results flagged for a closer look

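Within groups of 4 or 5 libraries, 84 sets of values (7 members in 12 groups) were searched for a library far from the others, and 3 held one; chance gives about 1 in 20. Gabra5 was at 2161 in WT vehicle female 3, against 1635 to 1713 in the other vehicle females, and that library had an olfactory score of 2.45. Gabrb1 was at 4859 in WT fluoxetine female 3, against 4059 to 4100.1 in the others of its group. Gabrd was at 1524 in HT vehicle male 4, against 1729.6 to 1798 in the others, with an olfactory score of 0.18. The part of tissue makeup in these values was not tested.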

How the results depend on the processing

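Over 11 settings and 56 omissions of a single library, the members called changed in 2 of 20 comparisons. Without the 19 libraries with an olfactory or striatal score above 1, 0 members were called under lithium in WT mice and 0 over both genotypes, against 1 in each with all libraries; fewer libraries entered that fit, and the genes called under lithium in WT mice numbered 212, against 1016. Leaving out each library gave 0 to 1 members under lithium in WT mice and 1 over both genotypes. The cause of the 2 losses was not tested. In the other 10 settings Gabra3 stayed called in WT mice, at 0.17 to 0.18 and adjusted p-values of 0.012 to 0.041. None of the 138 uncalled results of single members was called under any setting or omission, and 40 of them changed sign under a setting.

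The replicate numbers of the titles gave no sign of pairing. The deviations of same-numbered libraries had a median correlation of -0.0016 (-0.24 to 0.43), and 24 of 292 pairs were over 0.1. In some WT fluoxetine and WT lithium females the number in the library name differs from that of the title, and pairing by library name was not tested. With the replicate number as a block, Gabra3 rose by 0.18 in WT mice (adjusted p = 0.027 by limma), 1 member was called there and 1 over both genotypes, and 0 elsewhere. Groups of 4 or 5 libraries and a within-group SD of 6.99% to 11.9% limit what can be seen for a single sex. Reads were at least 1257 per member and library, so counting error is small beside that spread.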
